A study of Mus musculus with 19 samples.

Results

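Cathepsins are the proteases of the lysosome, the acid compartment in which a cell breaks down what it has engulfed. Ctsb, Ctsl, Ctss, Ctsk, Ctsh and Ctsz encode cysteine proteases, Ctsc encodes a dipeptidyl peptidase that activates the serine proteases of leukocyte granules, Ctsd encodes an aspartic protease, and Ctsa encodes a serine carboxypeptidase that holds neuraminidase and beta-galactosidase in an active complex. Most are made as proenzymes, carried to the lysosome by mannose 6-phosphate receptors, matured there at acid pH and held in check by cystatins. Ctss trims the invariant chain of MHC class II in antigen-presenting cells, and Ctsk, secreted by osteoclasts, degrades the collagen of bone. The family described here is the 9 genes Ctsa, Ctsb, Ctsc, Ctsd, Ctsh, Ctsk, Ctsl, Ctss and Ctsz, taken by symbol from the 27998 genes of the deposited matrices. All 9 were present in the files and passed the filter on low counts in every comparison.

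The libraries came from a mouse model of heterotopic ossification (HO), in which a burn to the back is combined with transection of the Achilles tendon and bone later forms at the tendon. Cells of the tenotomy site were dissociated and profiled by 3′ single-cell RNA-seq in 19 libraries, namely 4 from day 0, 3 from day 3, 4 from day 7, 4 from day 21 and 4 from injured mice given p7N3, a CD47-activating peptide. Per the methods of the study, day 0 tissue was uninjured, although the labels give the same burn and tenotomy text for it. The peptide was given daily at 10 mg/kg by intraperitoneal injection for 3 days before and 3 days after injury. Tissue was taken at day 7, a harvest day that the label of p7N3 replicate 4 leaves out. The labels name C57 and LysmCre/Tgfb1fx/fx mice for the series as a whole and no genotype for a library, so a genotype could not be set beside any value. LysmCre acts in myeloid cells. The fourth replicates were submitted after the others. No source ties a library to 1 animal, so the spread between libraries may be partly technical.

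After filtering, 39541 cells remained, 571 to 3668 per library, with 3019467 to 39870492 unique molecular identifiers (UMIs) per library. The median per cell was 3414 to 4693 UMIs in day 0 libraries and 6534 to 12406 in the later ones. At most 1.256% of the barcodes of the smaller library of any pair were shared. Levels are given as CPM, the UMIs of a gene per 1000000 UMIs summed over the cells of 1 type in 1 library. Clusters were named from fixed markers, with all 9 cathepsins and the other genes of their pathway left out of the clustering. Monocyte/macrophage-like cells numbered 390 at day 0, 3843 at day 3, 4829 at day 7, 4686 after p7N3 and 680 at day 21. Stromal-like cells numbered 1185, 824, 5735, 4195 and 1900 in the same order.

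The family had several patterns over cell types, which are descriptions with no test. Ctsb, Ctsc, Ctss and Ctsa had their highest mean in monocyte/macrophage-like cells, over libraries with at least 20 cells of a type. Ctsb averaged 3762 ± 798 CPM there (SD, n = 19) and 828 ± 183 CPM in stromal-like cells (n = 19). Granulocyte-like cells came next at 2631 ± 1176 CPM (n = 8), a spread that reached the macrophage mean. Ctss averaged 3041 ± 987 CPM in monocyte/macrophage-like cells, 2481 ± 1047 CPM in granulocyte-like cells and 1876 ± 149 CPM in dendritic cell-like cells (n = 11). Against these leukocytes Ctss was low in stroma, at 56.0 ± 50.6 CPM. Ctsc fell into the same order, with 1171 ± 140 CPM in monocyte/macrophage-like cells, 695 ± 164 CPM in granulocyte-like cells and 55.9 ± 32.5 CPM in stromal-like cells. Ctsa ran from 432 ± 76.4 CPM in monocyte/macrophage-like cells through 337 ± 60.2 CPM in plasmacytoid dendritic cell-like cells (n = 5) to 81.8 ± 16.7 CPM in stromal-like cells.

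Ctsh, an aminopeptidase, was highest outside the macrophages. It averaged 1785 ± 282 CPM in plasmacytoid dendritic cell-like cells, 795 ± 80.3 CPM in dendritic cell-like cells and 641 ± 97.1 CPM in monocyte/macrophage-like cells. The plasmacytoid value stood clear of the others, and the spreads of dendritic and macrophage cells touched. Ctsz, a carboxypeptidase, had overlapping spreads across 4 leukocyte types. It averaged 830 ± 77.1 CPM in plasmacytoid dendritic cell-like cells, 823 ± 257 CPM in granulocyte-like cells, 815 ± 252 CPM in monocyte/macrophage-like cells and 751 ± 47.7 CPM in osteoclast-like cells. Ctsd likewise had overlapping spreads in granulocyte-like cells at 1772 ± 695 CPM and monocyte/macrophage-like cells at 1693 ± 745 CPM. All these spreads pool different days. Macrophage Ctsd ran from 426 to 2539 CPM over 19 libraries of all days. Granulocyte-like cells numbered 13 at day 0 and 9 at day 21, so no library of those days reached 20 of them. Levels on like days were not compared between cell types. Ctsl was spread over some leukocytes, stroma and endothelium. It averaged 1291 ± 633 CPM in monocyte/macrophage-like cells and 1246 ± 262 CPM in plasmacytoid dendritic cell-like cells. Stromal-like cells were at 645 ± 171 CPM and endothelial-like cells at 447 ± 78.0 CPM. Other leukocytes were the lowest of all types, with dendritic cell-like cells at 93.6 ± 40.6 CPM, T/NK lymphocyte-like cells at 75.0 ± 41.9 CPM and B lymphocyte-like cells at 33.3 ± 10.2 CPM. The heat map of mean CPM by cell type shows these orders together.

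**Figure D1:**
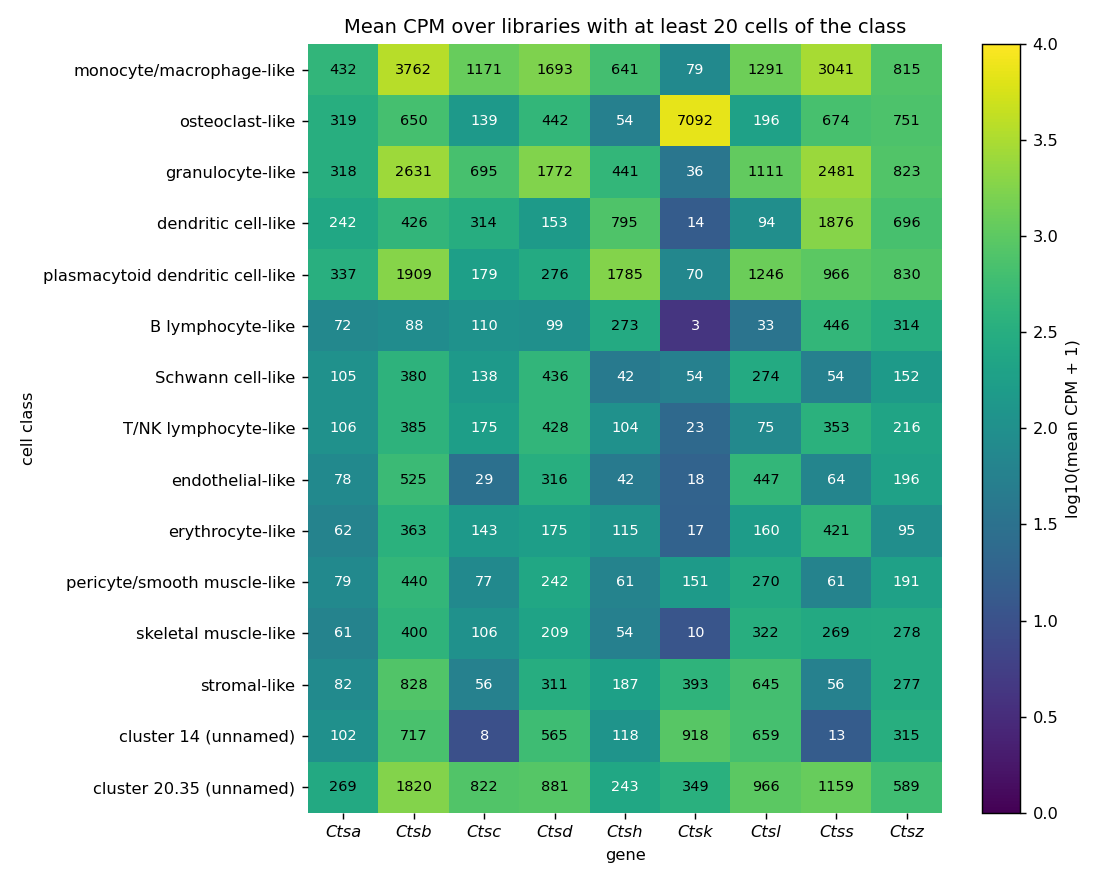
Mean CPM of the 9 cathepsins (columns) in each cell type (lines of the map), averaged over libraries with at least 20 cells of the type, with colour as log10(mean CPM + 1) and the mean written in each field. Ctsk reaches 7092 CPM in osteoclast-like cells, while Ctss is 13.4 CPM and Ctsc 8.42 CPM in cluster 14.

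Ctsk was concentrated in few cell types. It averaged 7092 ± 1202 CPM in osteoclast-like cells (n = 4), 918 ± 240 CPM in cluster 14 (n = 6), 393 ± 213 CPM in stromal-like cells, 349 ± 244 CPM in cluster 20.35, an unnamed group of dividing cells (n = 6), 151 ± 75.2 CPM in pericyte/smooth muscle-like cells and 78.7 ± 61.7 CPM in monocyte/macrophage-like cells. The osteoclast-like cells were 171 in all, 72 of them at day 7 and 85 after p7N3. They were named from markers such as Acp5, Mmp9 and Atp6v0d2, without Ctsk, and both Ctsk and Atp6v0d2 were left out of the clustering. The 4 day 0 cells among them held 0 UMIs of Acp5, Mmp9, Atp6v0d2 and Ctsk. Of the osteoclast markers, Acp5 stood at 6210 CPM, Mmp9 at 3677 CPM, Atp6v0d2 at 578 CPM, Ocstamp at 166 CPM and Dcstamp at 97.6 CPM over the day 7 cells, and Calcr was near 0 at 1.79 CPM. Ctsk in these cells was 6812, 6504, 7761 and 8755 CPM in the 4 day 7 libraries and 9560, 6917, 5883 and 6759 CPM in the 4 p7N3 libraries, so the groups overlapped. A Ctsk UMI was found in 73.6% of the day 7 osteoclast-like cells, or 62.5% once each cell was thinned to 1500 UMIs. In T/NK lymphocyte-like cells of day 7, which should lack the gene, the shares were 9.17% and 3.49%, at a median depth of 4178 UMIs against 15236 in the osteoclast-like cells. Cluster 14 was left unnamed because its leading genes Col2a1, Cilp2, Fmod and Tnmd mixed cartilage and tendon markers. Cluster 20.35 scored highest for monocyte/macrophage, with 13 of those markers detected. It was left unnamed because Camp, a granulocyte marker, was among its leading genes and no macrophage marker was.

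Of the cells of macrophage type, cluster 2, led by Mmp12, Arg1, Gpnmb and Spp1, had Ctsk at 346 ± 252 CPM, Ctsl at 3792 ± 1834 CPM and Ctsd at 3079 ± 1167 CPM (SD, n = 14 libraries), with Ctsc at 620 ± 171 CPM. Cluster 0, led by Ms4a7, Apoe, C1qa and Trem2, had Ctsb at 5239 ± 447 CPM and Ctss at 4284 ± 424 CPM but Ctsk at 40.9 ± 33.1 CPM (n = 12). The lowest Ctsb and Ctsd levels were in cluster 5, led by Chil3 and Ly6c2, at 896 ± 137 and 418 ± 199 CPM (n = 13), and in cluster 9, led by Retnla and MHC class II genes, at 1010 ± 244 and 424 ± 123 CPM (n = 19). Ctss was more even, with means of 1986 to 4284 CPM over the 7 macrophage clusters. Within stroma, cluster 8, led by Crabp1 and Lrrc15, had Ctsc at 193 ± 38.7 CPM (n = 9), against means of 28.6 to 92.1 CPM in the other 7 stromal clusters.

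The genes most like each member over cell types were looked up by Pearson's r of log2(CPM + 1) over 144 sums of 1 cell type in 1 library, in 15 types. The sums share libraries and depth, so r is a description. Ctss was closest to Spi1 (r = 0.95) and Tyrobp, Ctsc to Fcgr2b (0.92) and Aif1, Ctsa to Npc2 (0.91), Ctsb to Grn (0.90), Ctsz to Npc2 (0.90), Ctsh to Plac8 (0.85) and Ctsd to Ninj1 (0.82). Ctsl was closest to Man1c1 (0.79) and Ctsk to Mmp14 (0.72), the loosest of the 9. Between members, Ctsc and Ctss had r = 0.89 and Ctsb and Ctsd 0.82, while Ctsk and Ctss had -0.12 although they are neighbours on the chromosome. In GRCm38/mm10 (GENCODE vM21) Ctsk spans chr3:95499256-95509362 and Ctss chr3:95526786-95556403, both on the plus strand, with 17424 bases and no other coding gene between them.

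The other members lie apart: Ctsa at chr2:164832873-164841032 (plus), Ctsb at chr14:63122462-63145923 (plus), Ctsc at chr7:88278085-88310888 (plus), Ctsd at chr7:142375911-142388038 (minus), Ctsh at chr9:90054152-90076089 (plus), Ctsl at chr13:64359337-64370890 (minus) and Ctsz at chr2:174427493-174439039 (minus). A second annotated gene overlaps Ctsd (Gm49369, coding), Ctsl (Gm49230, a pseudogene) and Ctss (Hmgb1-ps5) on the same strand, so reads of those stretches are uncertain. RefSeq promoter windows of GRCm38.p6 were held for 7 members, and Ctsb and Ctsh had no entry. They were searched on both strands for CACGTG, the core bound by MiT/TFE factors that switch on lysosomal genes, for its extended form TCACGTGA, which holds the core, for GAGGAAGT, an ETS form bound by the myeloid factor encoded by Spi1, and for the TATA box TATAAA. The core was in Ctsa, Ctsd and Ctsl, against 7.15% of all 32851 windows and 8.09% of the 27025 genes, counting a gene with a match in any window. TCACGTGA was in Ctsa and Ctsd, against 0.974% of windows and 1.12% of genes. GAGGAAGT was in Ctsc and Ctss, against 3.20% of windows and 3.69% of genes. The letters TATAAA were in Ctss, against 13.6% of windows and 15.7% of genes. That match lay on the reverse strand, 233 bases before the RefSeq start and outside the stretch printed below, so it was not taken as a TATA box. The 4 windows with an extended or ETS match are printed from 160 bases before to 20 bases after the RefSeq start, with the match in capitals (TCACGTGA in Ctsa and Ctsd, ACTTCCTC, the reverse complement of GAGGAAGT, in Ctsc and Ctss). The Ctsa window is the second of 2 held for that gene and lies inside the annotated gene span. The first Ctsa window, at the start of that span, held none of the motifs searched. A match is a stretch of letters and not a measured binding site.
Ctsa, chr2:164833613-164833792, plus strand: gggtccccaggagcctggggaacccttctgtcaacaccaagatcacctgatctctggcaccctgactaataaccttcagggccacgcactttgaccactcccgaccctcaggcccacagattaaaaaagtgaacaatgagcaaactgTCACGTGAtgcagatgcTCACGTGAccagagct
Ctsd, chr7:142387808-142387987, minus strand: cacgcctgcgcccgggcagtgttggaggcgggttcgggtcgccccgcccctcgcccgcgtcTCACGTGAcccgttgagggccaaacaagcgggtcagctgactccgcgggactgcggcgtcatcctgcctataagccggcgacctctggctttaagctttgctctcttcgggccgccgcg
Ctsc, chr7:88277925-88278104, plus strand: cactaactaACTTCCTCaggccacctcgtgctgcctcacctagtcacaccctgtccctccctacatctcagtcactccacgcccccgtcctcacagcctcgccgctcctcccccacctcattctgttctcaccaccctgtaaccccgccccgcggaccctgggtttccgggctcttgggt
Ctss, chr3:95526626-95526805, plus strand: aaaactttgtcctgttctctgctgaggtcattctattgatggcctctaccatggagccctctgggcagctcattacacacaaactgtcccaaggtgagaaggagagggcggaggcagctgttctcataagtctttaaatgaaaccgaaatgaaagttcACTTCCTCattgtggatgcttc

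Over the whole site, cathepsins peaked at day 3, apart from Ctsk. Ctss averaged 159 ± 49.6 CPM at day 0, 1460 ± 124 at day 3, 876 ± 169 at day 7 and 350 ± 92.9 at day 21 (SD, n = 4, 3, 4 and 4 libraries). Ctsb went from 586 ± 37.0 CPM to 2133 ± 163, 1559 ± 98.5 and 1041 ± 104 CPM, and no library of days 3 to 21 overlapped day 0. Ctsk took another course, with 97.7 to 127 CPM at day 0, 73.4 to 110 CPM at day 3, 308 to 365 CPM at day 7 and 548 to 758 CPM at day 21, so that days 0 and 3 overlapped and day 21 was the highest. Monocyte/macrophage-like cells made up 11.1% ± 2.1 of cells at day 0, 66.5% ± 2.8 at day 3, 36.5% ± 6.6 at day 7 and 13.2% ± 1.8 at day 21. In whole-site values, fewer cells of a type and less RNA per cell cannot be told apart. The levels within cell types are given next.

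The sources of Ctsk RNA changed with the day. Stromal-like cells held 76.7% ± 8.0 of all Ctsk UMIs at day 0, 53.0% ± 7.9 at day 3, 69.2% ± 8.4 at day 7 and 44.4% ± 3.8 at day 21. Cluster 14 held 18.2% ± 6.0 at day 0, 2.26% ± 1.99 at day 7 and 49.7% ± 3.8 at day 21, when it made up 18.0% ± 4.7 of cells. Monocyte/macrophage-like cells held 0.614% ± 0.357 at day 0, 31.1% ± 3.9 at day 3 and 6.17% ± 3.01 at day 7. A further 11.2% ± 6.1 at day 3 came from the dividing cells of cluster 20.35. This cluster scored highest for monocyte/macrophage markers but is not counted in the monocyte/macrophage-like share. After thinning to a common depth, a Ctsk UMI was found in 3.46% of monocyte/macrophage-like cells at day 3 and 4.97% at day 7. In T/NK lymphocyte-like cells, which should lack the gene, the shares were 3.49% at day 7 and 0% of 26 cells at day 3. A sum of 5 collagen markers, high in stroma, was 442 to 735 CPM in day 0 macrophages and 787 to 1388 CPM at day 3. How much of the macrophage Ctsk came from other cells was not tested. At day 7, osteoclast-like cells held 18.1% ± 9.2 of Ctsk UMIs while making up 0.551% of cells on average, and after p7N3 they held 22.1% ± 9.2 while making up 0.742%. At day 21 their share was 0.820% ± 1.24.

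**Figure D2:**
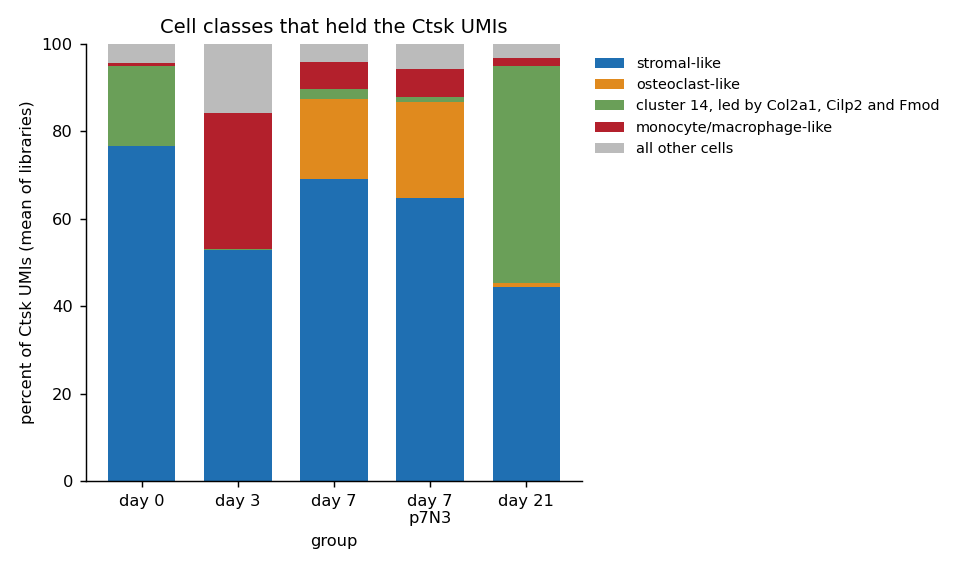
Percentage of all Ctsk UMIs of a library (vertical axis) that came from each cell type, as the mean over the libraries of each group (horizontal axis, n = 4, 3, 4, 4 and 4). Stromal-like cells held most at days 0, 3 and 7, and cluster 14 held 49.7% at day 21.

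Monocyte/macrophage-like cells were compared with day 0 to ask how the family stood in myeloid cells after injury. Ctsd, the aspartic protease, stood at 496, 495, 439 and 426 CPM in the day 0 libraries, 1759, 1883 and 1884 at day 3, 2261, 2431, 2380 and 2421 at day 7 and 1200, 1372, 2027 and 2539 at day 21. Every later library was above every day 0 library. Ctsl, an endopeptidase, stood at 290, 351, 325 and 283 CPM at day 0, 1323, 1307 and 1488 at day 3, 1418, 1346, 1346 and 2220 at day 7 and 776, 1576, 2217 and 1161 at day 21. These groups did not overlap day 0 either, and the day 21 libraries were the most spread. Ctss was 1568, 1315, 1687 and 1204 CPM at day 0, 2506, 2461 and 2680 at day 3, 3431, 3894, 3712 and 3693 at day 7 and 3126, 3253, 3865 and 4350 at day 21. Ctsk, at 7.85, 14, 6.50 and 3.11 CPM at day 0, rested there on 5, 4, 2 and 1 UMIs, and then read 39.3, 79.3 and 53.7 CPM at day 3, 56.9, 145, 64.2 and 140 at day 7 and 38.2, 59.8, 230 and 131 at day 21. Its fold change therefore has a weakly measured base, and at a finer clustering (resolution 2) the day 3 log2 change was 1.59 in place of 2.94.

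By edgeR's quasi-likelihood test with Benjamini-Hochberg adjustment over all genes, 8 of the 9 members rose in these cells at day 3, 9 at day 7 and 9 at day 21, and none fell. The 3 comparisons share the day 0 libraries. Of all genes tested, 25.2% were higher and 27.6% lower at day 3, 18.2% and 17.1% at day 7, and 11.7% and 13.7% at day 21. The members' median log2 fold change was 0.87, 1.55 and 1.07 on these days, against 0.0023, -0.0038 and -0.022 over all genes tested. At day 7 Ctsd rose by 2.56 ± 0.11 on the log2 scale (SE, adjusted p = 4.6e-11 by edgeR) and Ctsl by 2.55 ± 0.16 (adjusted p = 5.4e-09). Ctss rose by 1.55 ± 0.12, Ctsz by 1.57 ± 0.13, Ctsb by 0.90 ± 0.11, Ctsa by 0.89 ± 0.13 and Ctsh by 0.67 ± 0.13. Ctsk rose by 3.92 ± 0.54 (adjusted p = 2.8e-05 by edgeR), from the few UMIs above. How much of this rise was RNA from other cells was not tested. Ctsc had the smallest change, 0.38 ± 0.13 at day 7 (adjusted p = 0.028 by edgeR). Its day 7 libraries at 1152, 1275, 1277 and 871 CPM overlapped day 0 at 956, 965, 1079 and 1046 CPM, and the call was lost when plain library totals replaced the TMM factors (log2 change 0.17) and without day 0 replicate 1 (0.42) or day 7 replicate 1 (0.35), 2 (0.28) or 3 (0.28). Ctsh at day 3 was 0.17 ± 0.10 and was the 1 member not called there.

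**Figure D3:**
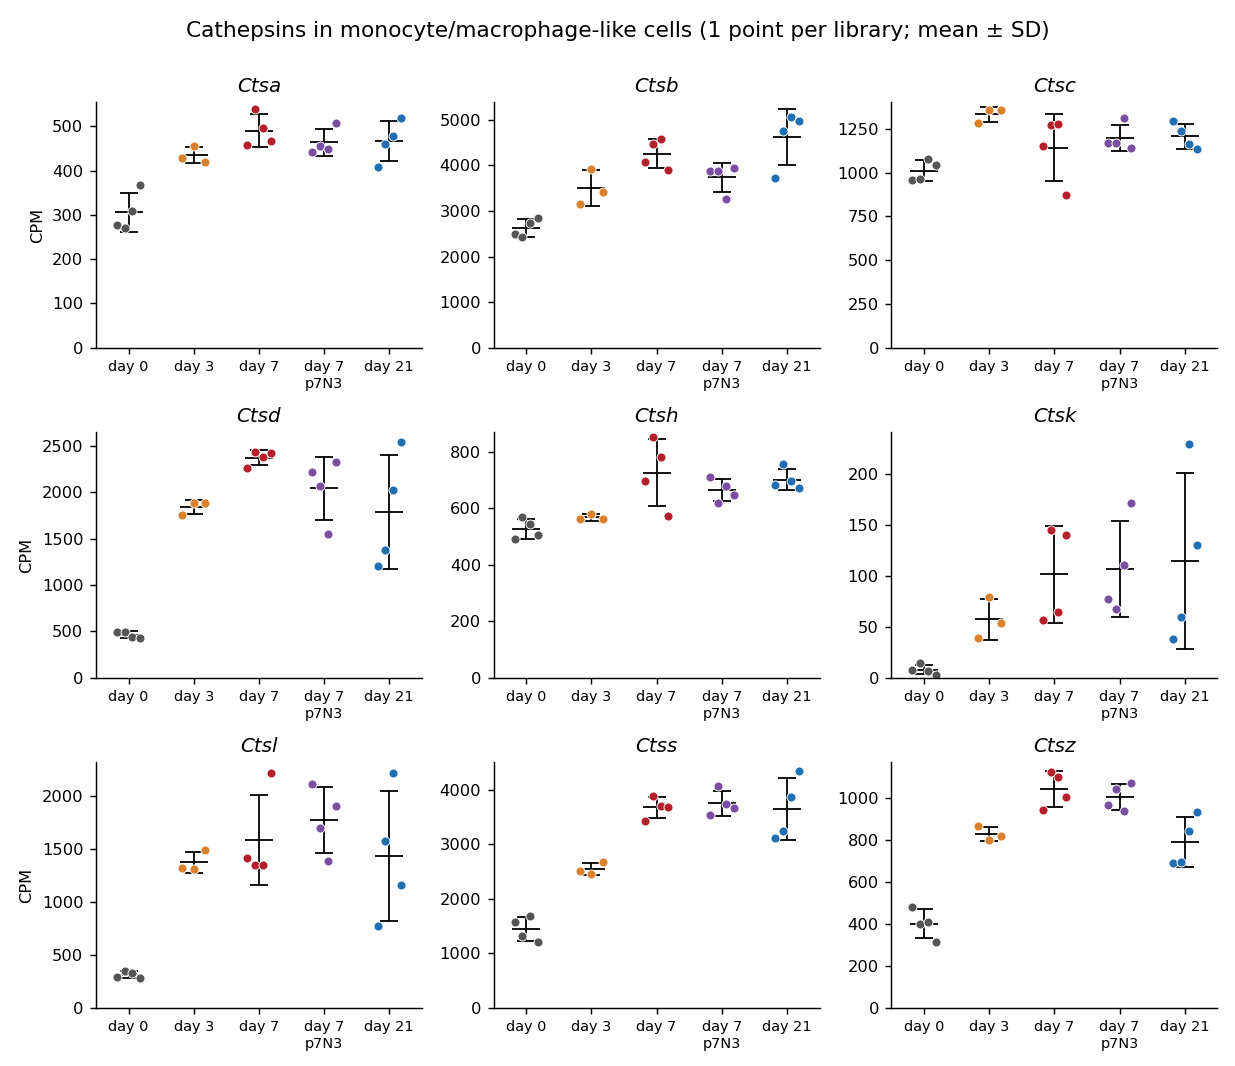
CPM of each cathepsin (1 panel per gene, vertical axis) in monocyte/macrophage-like cells of each library (points), by group on the horizontal axis, with the mean as a bar. Ctsd, Ctsl, Ctss and Ctsz of days 3, 7 and 21 lie above every day 0 library, and p7N3 overlaps day 7 for all 9 genes.

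The clusters within this cell type changed over time: cluster 15, led by Cd209f, Cd163 and Folr2, held 268 of 390 cells at day 0 (68.7%), whereas cluster 0 held 1634 and cluster 2 held 1121 of the 4829 cells at day 7. The comparison was therefore also run in cluster 15 alone, an alternative chosen after seeing the data. At day 7, 8 members rose there and Ctsk was under the filter on low counts, while 1262 of 4047 genes were called in either direction. Ctsd rose by 1.99, Ctsl by 1.37, Ctsz by 1.18, Ctsh by 0.76, Ctsc by 0.69, Ctsa by 0.66, Ctsb by 0.62 and Ctss by 0.62 on the log2 scale. In the whole cell type Ctsl and Ctss were at 2.55 and 1.55, and the gap between the fits was not tested. At day 21, 7 of 8 members tested were higher in cluster 15, where 734 of 4068 genes were called, with Ctsd at 1.23, Ctsl at 1.19 and Ctsa at 0.37 (adjusted p = 0.091 by edgeR). At day 3, with 2 libraries against 4, 7 of 8 members tested were higher and 1593 of 3507 genes were called. Ctsc was not called there, at 0.21 (adjusted p = 0.26 by edgeR) against 0.46 in the whole cell type. With replicates 1 to 3 alone, leaving out the later submission, 8, 9 and 9 members rose at days 3, 7 and 21, beside 3666 of 11009, 2737 of 9492 and 1139 of 6965 genes called. With plain library totals, which put the median log2 change of all genes at -0.21 at day 7 and -0.13 at day 21, the genes called went from 1715 higher and 1606 lower to 1130 and 2326 at day 7 and from 806 and 945 to 586 and 1208 at day 21. Under that scaling 8 members rose on each day and no member changed sign.

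Between day 7 and day 21, 1 member was called in macrophages. Ctsz fell by 0.45 ± 0.12 on the log2 scale (adjusted p = 0.028 by edgeR), from 945, 1128, 1104 and 1007 CPM to 694, 698, 844 and 936 CPM, with no overlap. Of all genes tested, 7.13% were higher and 6.73% lower. The Ctsz call was lost without day 7 replicate 2 (-0.41) or 3 (-0.42) or day 21 replicate 1 (-0.41), 2 (-0.38) or 3 (-0.49). Ctsd was at -0.46 ± 0.19 (adjusted p = 0.12 by edgeR), and its day 21 libraries straddled those of day 7. In cluster 15 alone, where 200 of 4291 genes were called, Ctsd fell by 0.74 (adjusted p = 0.00040 by edgeR) and Ctsz was -0.38 and not called (0.080).

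Stromal-like cells were compared in the same way. They were not all of 1 kind, and took in cluster 3, led by C1qtnf3, Scx and Tnn, the dividing cells of cluster 13 and cluster 29, led by Sfrp5 and Apod. Ctsk, at 256, 287, 208 and 220 CPM at day 0, was 130, 171 and 116 CPM at day 3, 405, 376, 423 and 339 CPM at day 7 and 710, 772, 704 and 811 CPM at day 21. Each day was separate from the others, with day 3 the lowest and day 21 the highest. Ctsl took a course of its own, at 838, 791, 939 and 784 CPM at day 0, 427, 428 and 362 at day 3, 531, 504, 529 and 530 at day 7 and 772, 881, 775 and 772 at day 21. It was low at days 3 and 7 and overlapped day 0 again at day 21. Ctsb, at 544, 567, 547 and 521 CPM at day 0, read 724, 873 and 642 at day 3, 1008, 899, 1035 and 849 at day 7 and 849, 878, 852 and 879 at day 21, all above day 0.

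By edgeR, 6 members rose and 2 fell at day 3, 7 rose and 1 fell at day 7, and 6 rose and 1 fell at day 21, again against shared day 0 libraries. Of all genes tested, 33.4% were higher and 32.8% lower at day 3, 27.9% and 27.0% at day 7, and 18.1% and 18.5% at day 21. The members' medians were 0.45, 0.67 and 0.58, against 0.0064, 0.0087 and -0.016 over all genes tested. Ctsk fell by 0.67 ± 0.14 on the log2 scale at day 3 (SE, adjusted p = 0.00086 by edgeR) and rose by 0.72 ± 0.11 at day 7 (0.00015) and 1.69 ± 0.10 at day 21 (3.5e-07). Ctsl fell by 0.92 ± 0.11 at day 3 and by 0.64 ± 0.10 at day 7, and its day 21 value of -0.02 ± 0.09 was not called. Ctsb rose by 0.58 ± 0.11, 0.84 ± 0.10 and 0.72 ± 0.08 on the 3 days, Ctsd by 0.47 ± 0.09, 0.55 ± 0.10 and 0.58 ± 0.09, and Ctsz by 0.45 ± 0.09, 0.42 ± 0.10 and 0.39 ± 0.08. Ctsa rose at days 7 and 21, by 0.67 ± 0.11 and 0.50 ± 0.11, and was 0.24 ± 0.12 at day 3. Ctsh rose by 0.34 ± 0.13 at day 3 (adjusted p = 0.035 by edgeR), was -0.22 ± 0.14 at day 7 and fell by 0.40 ± 0.12 at day 21 (0.024).

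**Figure D4:**
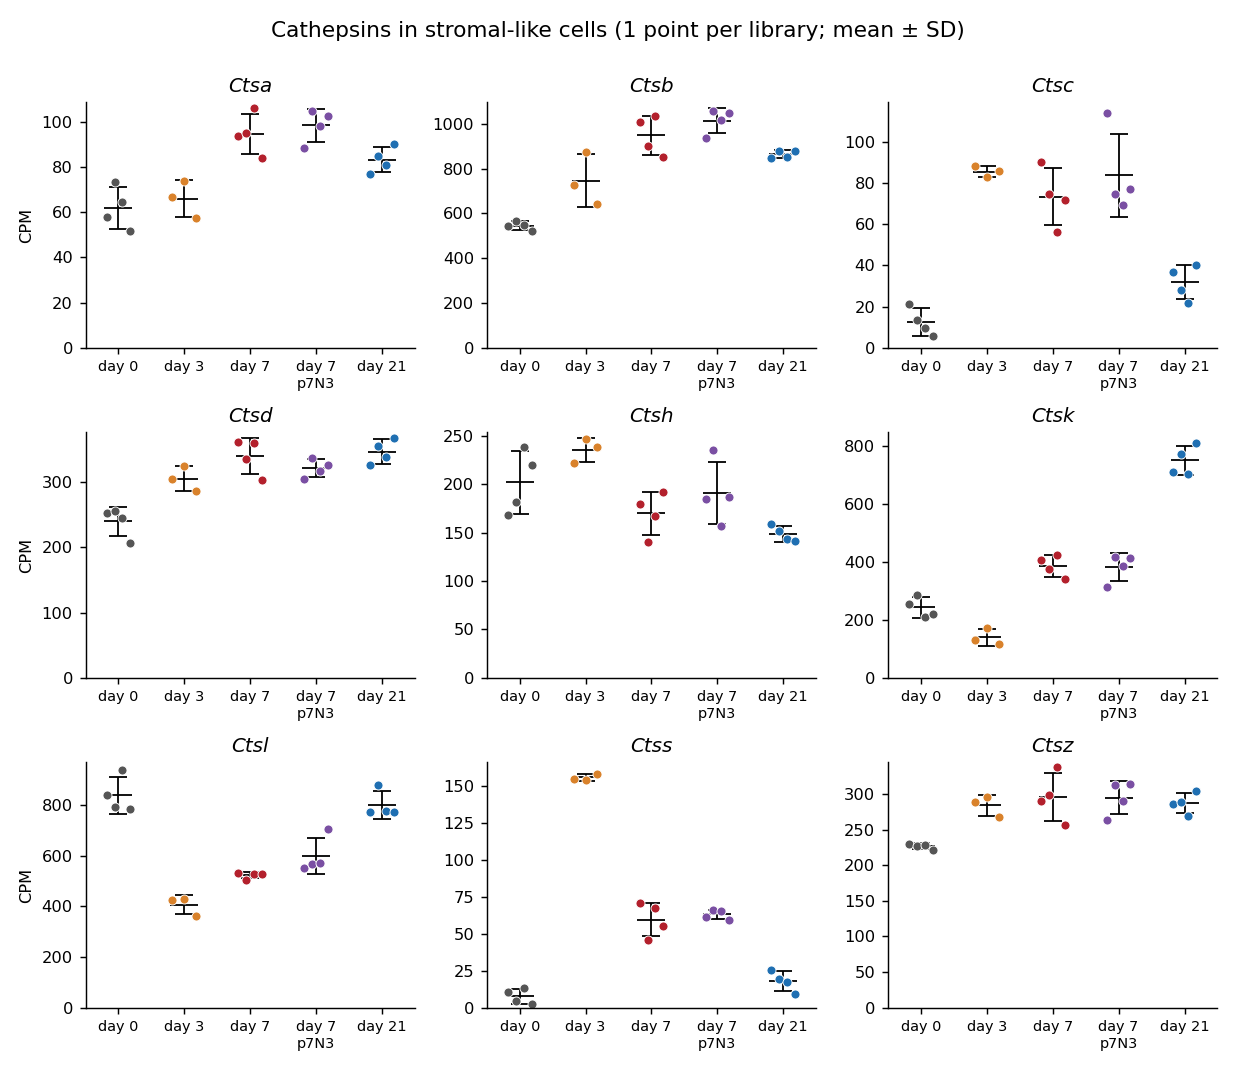
CPM of each cathepsin (1 panel per gene, vertical axis) in stromal-like cells of each library (points), by group on the horizontal axis, with the mean as a bar. Ctsk lies at 208 to 287 CPM at day 0 and at 704 to 811 CPM at day 21, and Ctss is highest at day 3.

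Ctss and Ctsc had the largest stromal changes of the family at days 3 and 7, from low day 0 levels. Ctss went from 10.5, 4.52, 13.4 and 2.84 CPM at day 0 to 155, 154 and 158 at day 3, 70.9, 45.8, 67.3 and 55.1 at day 7 and 25.7, 19.3, 17.6 and 9.59 at day 21. Only day 21 overlapped day 0. It rose by 4.28 ± 0.23 at day 3 (adjusted p = 1.4e-08 by edgeR) and by 2.82 ± 0.29 at day 7 (5.5e-06), and was 1.09 ± 0.40 at day 21 (0.052). Ctsc rose by 2.82 ± 0.23, 2.52 ± 0.26 and 1.35 ± 0.30 on the 3 days. It stood at 21.4, 13.6, 9.66 and 5.68 CPM at day 0 and 90.5, 74.8, 56.4 and 71.8 CPM at day 7.

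RNA of macrophage genes was also higher in stroma at days 3 and 7. The summed level of 8 myeloid genes (Lyz2, C1qa, C1qb, C1qc, Tyrobp, Fcer1g, Ptprc and Aif1) in stromal-like cells was 68.9 to 196 CPM at day 0, 2171 to 2327 CPM at day 3, 536 to 820 CPM at day 7 and 139 to 285 CPM at day 21. Each of the 8 had UMIs in every stromal sum after injury, and at most 1 was at 0 in a day 0 library. The ratio of Ctss to Lyz2 UMIs, Lyz2 being the lysozyme gene of myeloid cells, was near that of monocyte/macrophage-like cells after injury, at 0.165 against 0.175 at day 3 and 0.185 against 0.172 at day 7. Ctsc was alike at day 3, at 0.0907 against 0.0916, but was 0.234 against 0.0532 at day 7 and 0.375 against 0.0634 at day 21. A Ctss UMI was found in 2.28% of stromal-like cells at day 0 and 96.6% at day 3, at median depths of 5175 and 34707 UMIs, and in 0.628% and 20.1% after thinning to 1500 UMIs. At day 0 the ratio of Ctsc to Lyz2 was already 0.233 in stroma against 0.0743 in macrophages, close to the stromal 0.234 of day 7, so both genes had risen alike.

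The size of that myeloid signal was measured for every member, in a calculation added after seeing the data. Divided by the myeloid sum of the macrophages of the same library, the stromal sum came to between 0.227% and 0.567% in day 0 libraries. It was between 7.45% and 7.72% at day 3, between 1.40% and 1.94% at day 7, and between 0.341% and 0.708% at day 21. That share of the macrophage level of Ctss came to 193 CPM at day 3 and 60.4 CPM at day 7, against 156 and 59.8 CPM measured in stroma, so the whole stromal Ctss level was no larger than the share at day 3 and about as large at day 7. For Ctsc it came to 101 CPM against 85.6 measured at day 3, but 18.9 against 73.4 at day 7 and 6.29 against 31.8 at day 21. For Ctsb the share held 264 CPM at day 3, more than the distance between the stromal means of 545 CPM at day 0 and 746 CPM at day 3. Likewise it held 139 CPM of Ctsd, whose means were 240 and 305 CPM, and 62.9 CPM of Ctsz, whose means were 227 and 284 CPM. It held 42.9 CPM of Ctsh, whose means were 202 and 236 CPM. At day 3 the calculated share of each of these 6 genes was thus larger than its rise. For Ctss and Ctsc it was also larger than the whole level measured, so the calculation overstates the share at day 3. By how much it does so for the other genes is not known. Whether myeloid RNA made up these rises was not tested. At day 7 the share held 70.1 CPM of Ctsb, 39.0 of Ctsd, 17.2 of Ctsz and 8.04 of Ctsa, less than the distances from day 0 to the day 7 means of 948, 340, 296 and 94.9 CPM. Of Ctsk it held 4.33 CPM at day 3 and 1.59 CPM at day 7. The calculation takes the 8 genes to stand for all macrophage RNA, which was not tested.

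Composition moved in stroma as well. At day 3, 750 of the 824 stromal-like cells were in cluster 17, led by Cfd, Prg4 and Car3, which held 3 cells at day 0, so the day 3 values compare different clusters. Cluster 4, led by Myoc, Gsn and Scara5, held 96.3% of stromal-like cells at day 0, but 550 of 5735 at day 7 and 606 of 1900 at day 21. Cluster 8, the stromal cluster with the highest Ctsc, held 1 cell at day 0, 771 at day 7 and 37 at day 21. In cluster 4 alone, an alternative chosen after seeing the data, 8 members rose at day 7 beside 2428 of 8485 genes called in either direction. Ctsh was among them at 0.77 (adjusted p = 0.00073 by edgeR), as was Ctsc at 1.53, against 2.52 in the whole cell type. Ctsl was at -0.23 (adjusted p = 0.11 by edgeR). At day 21, 3 members and 947 of 8611 genes were called there, Ctsk at 1.48, Ctsb at 0.51 and Ctsd at 0.49. Ctsc was at 0.96 and not called (adjusted p = 0.10 by edgeR), against 1.35 in the whole cell type. The direction of Ctsh at day 7 thus turned with the cells compared, while the rise of Ctsk at day 21 held within the cluster. In replicates 1 to 3 alone, 8, 8 and 7 members were called at days 3, 7 and 21, beside 7224 of 11781, 5901 of 12697 and 2999 of 10817 genes, and Ctsh at day 21 was -0.32 and not called. That call was also lost without day 0 replicate 3 (-0.29), day 0 replicate 4 (-0.34) or day 21 replicate 3 (-0.38), and the day 3 call of Ctsh was lost without day 0 replicate 1 (0.25) or 2 (0.28) or day 3 replicate 2 (0.33) or 3 (0.35).

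From day 7 to day 21 Ctsk rose further in stroma, Ctsl rose back to overlap day 0, and Ctsc and Ctss fell. Ctsk rose by 0.99 ± 0.09 on the log2 scale (adjusted p = 0.00023 by edgeR) and Ctsl by 0.64 ± 0.07 (0.00036). Ctss fell by 1.72 ± 0.25 (0.0011) and Ctsc by 1.14 ± 0.19 (0.0019). These were the 4 members called, against 18.0% of genes higher and 16.6% lower. The myeloid sum fell over the same interval. In cluster 4 alone, where 954 of 8164 genes were called, Ctsk and Ctsl rose by 0.62 and 0.51, Ctss fell by 2.67 and Ctsh by 0.90 (adjusted p = 0.0017 by edgeR), and Ctsc was -0.58 and not called (0.16).

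Cells that are neither myeloid nor stromal gave a further view. In endothelial-like cells 9 members rose at day 7 and 8 at day 21, against 29.6% of genes higher and 29.8% lower at day 7 and 14.3% and 13.7% at day 21. Composition moved here too. Cluster 11, led by Timp4 and Tcf15, held 934 of the 1110 cells at day 0 but 31 at day 7 and 330 at day 21. Cluster 7, led by Plvap and Aplnr, held 142, 585 and 373 cells on these days. Over all cells pooled, Ctsa was 46.8 CPM in cluster 11 and 93.3 CPM in cluster 7, and Ctsb 369 and 594 CPM. The day 7 values thus compare largely different clusters. Ctsa was 37.2, 37.0, 32.6 and 42.0 CPM at day 0 and 111, 116, 95.7 and 111 CPM at day 7, a rise of 1.55 ± 0.12 on the log2 scale (adjusted p = 1.4e-07 by edgeR). It was 54.9 to 78.4 CPM at day 21, still above day 0. Ctsb rose by 1.07 ± 0.08 and 0.60 ± 0.09 on the 2 days and Ctsh by 1.65 ± 0.25 and 1.35 ± 0.20. Ctss rose by 2.58 ± 0.23 at day 7, while the 8 myeloid genes went from a sum of 179 to 366 CPM at day 0 to 459 to 972 CPM. The myeloid share, measured as in stroma, held 64.1 CPM of Ctss at day 7 against 59.5 measured, so the Ctss level was no larger than the share. It held 20.3 CPM of Ctsc against 25.6 measured, 8.59 of Ctsa against 108 and 74.4 of Ctsb against 622. The day 21 value of Ctss, 2.10 ± 0.74 (adjusted p = 0.05 by edgeR), rested on replicate 2 at 124 CPM beside 7.85, 26.7 and 26.6 CPM, and was 1.01 and not called without that library. The call was also lost without day 0 replicate 1 (2.11), 2 (2.13), 3 (2.25) or 4 (1.91). Plain library totals (2.08), replicates 1 to 3 (2.10) and at most 10% mitochondrial UMIs (2.11) lost it too. It was kept with the top doublet scores removed, at 2.72 (adjusted p = 0.039 by edgeR). In cluster 11 alone, where 568 of 7253 genes were called, Ctss was 3.25 (0.0020). Ctsa was called there at 0.79, Ctsb at 0.50, Ctsd at 0.39, Ctsh at 1.88, Ctsk at 1.75 and Ctsl at 0.44. Ctsz, at 0.38, was not (0.064), and Ctsc was under the filter. The 8 myeloid genes summed to 163 to 965 CPM in day 21 endothelial-like cells, and the share held 38.1 CPM of Ctss against 46.3 measured. Without day 0 replicate 1, the day 7 value of Ctsk went from 1.09 ± 0.34 to 0.81 and was not called. Ctsd, at 0.30 ± 0.10, was not called without day 0 replicate 2 (0.27), 3 (0.24) or 4 (0.28). RNA of stromal genes was also higher after injury. The 5 collagen markers, at 41681 to 51415 CPM in day 0 stroma, summed to 570 to 728 CPM in day 0 endothelial-like cells. They summed to 1056 to 3173 CPM at day 7 and 1359 to 2510 CPM at day 21. A stromal share of Ctsk was not calculated. Whether stromal RNA made up the rises of Ctsk in endothelial-like cells was not tested. Day 3, with 97 such cells, was not compared.

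Whether stroma and macrophages changed differently was tested as an interaction with the library as a block. At day 7, 7 members differed. The change in macrophages exceeded that in stroma for Ctsl by 3.18 ± 0.15 on the log2 scale (adjusted p = 8.9e-13 by edgeR), for Ctsk by 3.14 ± 0.58, for Ctsd by 2.04 ± 0.12, for Ctsz by 1.19 ± 0.14 and for Ctsh by 0.89 ± 0.18. It was smaller for Ctsc, at -2.12 ± 0.26, and for Ctss, at -1.28 ± 0.25. At day 7 the calculated myeloid share was 60.4 CPM of Ctss against 59.8 measured in stroma, and 18.9 CPM of Ctsc against 73.4. Whether myeloid RNA made up part of either difference was not tested. How much of the macrophage change of Ctsk was RNA from other cells was not tested. Of all genes tested, 10.2% had a larger and 10.7% a smaller change in macrophages. Ctsa and Ctsb, which rose in both, had differences of 0.25 (adjusted p = 0.29 by edgeR) and 0.09 (0.60). The interaction was run on whole cell types, whose clusters changed with the day. In macrophage cluster 15 and stromal cluster 4, Ctsh was at 0.76 and 0.77 at day 7, and Ctsl at 1.37 and -0.23, the last not called. Ctsd was at 1.99 and 0.62, Ctsz at 1.18 and 0.42, Ctsc at 0.69 and 1.53 and Ctss at 0.62 and 3.31. Ctsk was under the filter in cluster 15. The difference between these clusters was not tested. At day 21, 6 members differed, 5 of them larger in macrophages, against 4.72% and 5.39% of genes. Ctsl was at 2.23 ± 0.21, Ctsd at 1.41 ± 0.17, Ctsh at 0.91 ± 0.14, Ctsz at 0.69 ± 0.15 and Ctsk at 2.13 ± 0.67 (adjusted p = 0.044 by edgeR), and Ctsc was at -0.98 ± 0.26. The Ctsk call at day 21 was lost without the library block, at 2.31, and without day 0 replicate 1 (2.23), 2 (2.41), 3 (2.22) or 4 (1.94), and that of Ctsc without day 0 replicate 3 (-0.72) or 4 (-0.73).

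**Figure D5:**
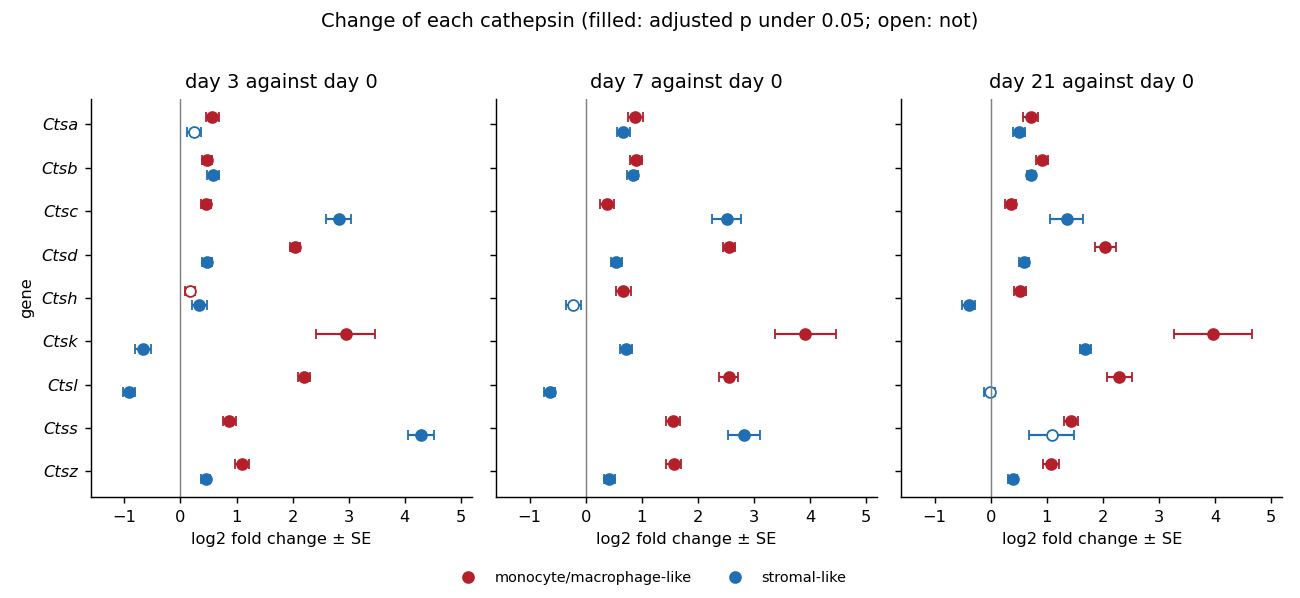
Log2 fold change against day 0 (horizontal axis, points with SE bars from edgeR, filled where the adjusted p was under 0.05) of each cathepsin (vertical axis) in monocyte/macrophage-like and stromal-like cells, with 1 panel per day. Ctsl is above 0 in macrophages and below 0 in stroma at days 3 and 7, and Ctss in stroma is the largest change at day 3.

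The peptide p7N3 was compared with day 7 to ask whether CD47 activation moved the family. The study set p7N3 against injured mice given PBS, but the titles of the day 7 libraries name no vehicle. Effects of the injections and of the peptide therefore cannot be told apart. In monocyte/macrophage-like cells Ctsb stood at 3878, 3866, 3263 and 3943 CPM after p7N3 and 4064, 4461, 4578 and 3904 CPM at day 7, overlapping by 1 library. Ctsd was 2214, 2072, 1552 and 2323 CPM against 2261 to 2431 CPM. Their log2 changes were -0.20 ± 0.09 and -0.23 ± 0.11, and those of the other 7 members lay between -0.14 and 0.15, with adjusted p of 0.62 or more by edgeR. No member was called in these cells, where 0% of all 10920 genes tested were called. At an unadjusted p under 0.05 there were 881 genes and 0 members, and DESeq2 called 19 genes and 0 members. In stromal-like cells 0 members were called, against 0.00738% of genes (1 of 13545). At an unadjusted p under 0.05 there were 2064 genes and 1 member, Ctsl at 0.19 ± 0.09, and DESeq2 called 288 genes and 0 members. The difference between the cell types was called for 0 members and 0% of genes. At an unadjusted p under 0.05 there were 1160 genes and 1 member, Ctsb at -0.32 ± 0.10 (macrophage minus stroma). The standard errors were 0.08 to 0.33 in macrophages and 0.08 to 0.17 in stroma. Changes of more than 2 standard errors, such as those of Ctsb and Ctsd in macrophages, did not pass the test.

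The other genes of the pathway were counted from fixed lists, which are larger than the family. In macrophages at day 7, 14 of the 18 tested V-ATPase subunits, which acidify the lysosome, rose and none fell, with a median log2 change of 0.65. They included Atp6v0d2 at 4.92 and Atp6v1c1 at 1.5. Of 10 genes of sorting and activation, 7 rose and none fell (median 0.87), with Igf2r, a mannose 6-phosphate receptor, at 3.33 and Lgmn, a protease that matures cathepsins, at 1.22. Of lysosomal hydrolases and membrane proteins, 15 of 40 were higher and 6 lower (median 0.17). Of all genes 18.2% were higher and 17.1% lower in this comparison, so the count of lower hydrolases lay near the share of all genes. Among the MiT/TFE factors, Mitf was at 1.42 and Tfeb at 0.79, while Tfe3 fell by 0.60. Of 6 inhibitors tested, 2 rose and 3 fell. Cstb, a cystatin of the cytosol, went from 510 to 1985 CPM, and Serpinb1a fell by 3.16. The other cathepsins with enough counts were few, and Ctsf fell by 2.22, from 43.1 to 8.00 CPM. By day 21, 8 of 18 V-ATPase subunits had fallen from day 7 and none had risen, against 6.73% and 7.13% of all genes. At day 3, 6 of 7 MHC class II genes were lower, H2-Eb1 by 1.69, while Ctss rose by 0.87 ± 0.11, and 27.6% of all genes were lower. At day 21, 6 of 8 of these genes were higher, against 11.7% of all genes.

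In stroma at day 7, 8 of 40 hydrolase and membrane genes rose and 9 fell, 5 of 17 V-ATPase subunits rose and 3 fell, and 3 of 10 sorting genes rose and 3 fell. With 27.9% of all genes higher and 27.0% lower in this comparison, these counts lay near or below the share of all genes. All 3 MiT/TFE factors tested fell, Mitf by 1.29 and Tfeb by 1.15. Cst3, the secreted cystatin C, fell by 1.95 at day 3 and by 1.76 at day 7, from 3035 to 869 CPM at day 7, and rose by 1.56 from day 7 to day 21. Ctla2a, an inhibitor with a propeptide-like fold, was higher by 3.47 at day 21. Lgmn rose by 1.65 at day 7, and Ctsf and Ctso fell by 0.95 and 1.63. In the interaction at day 7, 9 of 18 V-ATPase subunits and 6 of 10 sorting genes changed more in macrophages, and none and 1 changed less, against 10.2% and 10.7% of all genes.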

How the data were processed

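The deposited matrices of 19 libraries hold raw UMI counts for 27998 mouse genes. The file of day 0 replicate 1 holds 737280 barcodes, and the other 18 hold 614 to 3786, a number near that of the cells kept. Per the methods of the study and the labels, the authors made 10x v2 libraries and counted UMIs with Cell Ranger, and used Seurat downstream. The study gives mm10 as the genome. The labels name GRCh38 for replicates 1 to 3 and mm10 for the fourth replicates, although all files carry the same mouse gene identifiers. Barcodes were kept as cells (39541) when 500 or more genes were detected and mitochondrial UMIs did not exceed 25%, the filter of the study. For clustering, counts were brought to a common total per cell, log-transformed and scaled by gene. They were clustered with scanpy 1.11.5 (2000 variable genes without the 110 cathepsin and lysosome genes, 30 components, 20 neighbours, Leiden resolution 0.8 with leidenalg 0.10.2), giving 32 clusters. Libraries were not aligned to each other, whereas the study used canonical correlation analysis. A change of clusters between days can thus also hold a difference between libraries, which was not tested. A cluster was named from fixed markers when at least 3 were detected, by a scoring rule set after seeing the clusters, and a mixed cluster was split by the resolution 2 labels. No doublets were removed in the reported values.

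For each library with 10 or more cells of a type, the UMIs of those cells were added up and tested with edgeR 4.0.16 (R 4.3.3), TMM factors, filterByExpr and the quasi-likelihood test, with Benjamini-Hochberg adjustment over all genes tested and a threshold of 0.05. A negative binomial test between cells, as used in the study, was not run because cells are not replicates. As a measure added after seeing the data, the myeloid share of a stromal-like or endothelial-like sum was its summed CPM of 8 myeloid genes over that of the macrophages of the same library. The difference between cell types was an interaction with library as a block. All 9 members were tested in each comparison, though not every value is printed. From each other fixed list, the 2 genes with the largest called change in each direction and a mean of at least 10 CPM were eligible to be named. Members and lists were chosen with earlier results of these data known. Alternatives were RLE factors, DESeq2 1.42.0, no filter on low counts, at most 10% mitochondrial UMIs, Leiden resolution 2, removal of the top 3.9% of Scrublet scores, the replicate block, 1 fit of all 5 groups, replicates 1 to 3 only, leaving out each library, no library block, and, added after seeing the data, plain library totals and the largest day 0 cluster alone. Counts were also simulated with 200 changed genes per comparison, each moved by 1 on the log2 scale. These genes had a mean of at least 10 UMIs per sum, and all genes had the same dispersion. Of the changed genes tested, 53.2% to 93.3% were recovered within cell types and 36.3% to 73.7% for the differences. Smaller changes, such as those under p7N3, were not simulated. Intervals between libraries cover counting and library error only as far as the replicates show it. Promoter windows came from RefSeq on GRCm38.p6 (27025 genes).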

Additional observations from a re-analysis of the deposited data

Results flagged for a closer look

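Of 108 groups of 4 libraries tested with Dixon's criterion, 6 held a library that stood apart, where chance alone marks about 1 in 20. In endothelial-like cells, Ctss was 124 CPM in day 21 replicate 2, beside 7.85 to 26.7 CPM in the other 3. In monocyte/macrophage-like cells, Ctsl was 2220 CPM in day 7 replicate 4, beside 1346 to 1418 CPM, and Ctsb was 3263 CPM in p7N3 replicate 3, beside 3866 to 3943 CPM. In stromal-like cells, Ctsl was 504 CPM in day 7 replicate 2, 881 CPM in day 21 replicate 2 and 706 CPM in p7N3 replicate 4.

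The change from day 0 differed between macrophages and stroma for 7 members at day 7 by the interaction test. The differences, macrophage minus stroma on the log2 scale, were 3.18 for Ctsl, 3.14 for Ctsk, 2.04 for Ctsd, 1.19 for Ctsz, 0.89 for Ctsh, -1.28 for Ctss and -2.12 for Ctsc. At day 21 it differed for 6 members, with 2.23 for Ctsl, 2.13 for Ctsk, 1.41 for Ctsd, 0.91 for Ctsh, 0.69 for Ctsz and -0.98 for Ctsc. In the whole cell types, Ctsl was called higher in macrophages and lower in stroma at day 7, and was the 1 member called in opposite directions on that day. In the largest day 0 cluster of stroma it was at -0.23 and not called. Ctsh was at 0.76 and 0.77 at day 7 in the largest day 0 clusters of macrophages and stroma, where the difference was not tested.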

How the results depend on the processing

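Of the 84 member results called, 66 kept their direction and side of the threshold in every alternative and none changed direction in any. Counts of members called stayed within 1.5 times in 254 recomputed counts, rose beyond that in 6 and fell beyond it in 6. In monocyte/macrophage-like cells, day 21 against day 7, 1 member was called as reported and 2 with no filter on low counts, with the replicate block, with replicates 1 to 3 only, in one fit of all 5 groups and at Leiden resolution 2. Leaving out 1 library gave 0 to 2 members, with 0 without day 7 replicate 2 or 3 or day 21 replicate 1, 2 or 3. In stromal-like cells, day 21 against day 0, 3 members were called in the largest day 0 cluster in place of 7. The causes were not tested. The replicate block changed no other count of members by over 1.5 times. Over 46 pairs, samples with the same number correlated at -0.071 to 0.268, above 0.1 in 6, so the numbers were not taken as pairing libraries. The highest values, 0.268 in stroma and 0.172 in macrophages, were both of replicate 4 in day 21 against day 7. The fourth replicates are the later submission, and what those libraries share was not tested.

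The values that changed sign were all of results not called as reported. For day 21 against day 7 in macrophages, Ctsc was -0.032 with no filter, -0.073 with replicates 1 to 3, -0.010 in one fit, -0.0057 at Leiden resolution 2 and -0.080 in the largest day 0 cluster. Ctsk was -0.015 with the replicate block and -0.085 at Leiden resolution 2, Ctsb -0.026 and Ctsl 0.079 with replicates 1 to 3, and Ctss 0.31 in the largest day 0 cluster. For p7N3 against day 7 in macrophages, Ctsc was -0.037 and Ctsk -0.092 with replicates 1 to 3, Ctsk -0.11 at Leiden resolution 2, and Ctsb 0.080, Ctsh 0.070 and Ctsz 0.13 in the largest day 0 cluster. In stroma under p7N3, Ctsa was -0.0056 with replicates 1 to 3, Ctsz 0.0021 with RLE factors and 0.0021 with DESeq2, and the largest day 0 cluster gave -0.0065 for Ctsb, -0.47 for Ctsh, -0.090 for Ctsl and 0.018 for Ctsz. For stromal day 21 against day 7, Ctsd was -0.034 with replicates 1 to 3 and -0.14 in the largest day 0 cluster. Stromal Ctsh at day 7 was 0.77 in that cluster. Stromal Ctsl at day 21 against day 0 was 0.028 with no filter, 0.028 in one fit, 0.0033 without the top doublet scores and 0.28 in that cluster.

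With 1 library left out, day 21 against day 7 ranged from -0.094 to 0.086 for Ctsc and -0.43 to 0.39 for Ctsk in macrophages, and from -0.0030 to 0.084 for Ctsd and -0.087 to 0.049 for Ctsz in stroma. Under p7N3 the ranges were -0.064 to 0.11 for Ctsc, -0.28 to 0.26 for Ctsk and -0.035 to 0.046 for Ctss in macrophages, and -0.069 to 0.076 for Ctsk, -0.021 to 0.17 for Ctss and -0.062 to 0.067 for Ctsz in stroma. Their difference ranged from -0.25 to 0.045 for Ctsc, -0.21 to 0.33 for Ctsk, -0.17 to 0.14 for Ctsl and -0.23 to 0.046 for Ctss. Ctsl at day 21 against day 0 in stroma ranged from -0.070 to 0.058, and the difference of Ctss at day 21 from -0.058 to 0.65. Day 0 sums held the fewest UMIs, which limited Ctsk in macrophages and Ctss in stroma. No day 7 value of the largest day 0 cluster was made in endothelial-like cells, which had 31 cells there.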

Other observations

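The share of stromal-like cells with a Ctsk UMI was 54.8% at day 0, 94.3% at day 3, 92.7% at day 7 and 93.5% at day 21, at median depths of 5175, 34707, 13878 and 12523 UMIs. After thinning each cell to 1500 UMIs the shares were 27.6%, 18.8%, 41.0% and 55.7%, the order of the CPM values. In monocyte/macrophage-like cells the thinned shares were 1.40% at day 0, 3.46% at day 3, 4.97% at day 7 and 6.62% at day 21, and in T/NK lymphocyte-like cells of day 7, which should lack the gene, 3.49%. At day 7 the macrophage share was thus near that of the T/NK lymphocyte-like cells of the same day. At day 3 no T/NK lymphocyte-like cell had a Ctsk UMI after thinning, among few such cells. Cluster 2 of the macrophages had a mean of 346 CPM. How much of the macrophage Ctsk came from other cells was not tested.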
